A study of Homo sapiens with 6 samples.

Results

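Tetraspanins are small membrane proteins that cross the lipid bilayer repeatedly and gather partner proteins into membrane domains. They carry palmitate added by DHHC enzymes, and in leukocytes they organise integrins, MHC class II molecules and membrane proteases at the cell surface and in endosomes. CD9, CD63 and CD81 are in wide use as markers of extracellular vesicles. The 10 tetraspanin genes described here, CD9, CD37, CD53, CD63, CD81, CD82, CD151, TSPAN3, TSPAN4 and TSPAN14, were taken by name from 34893 genes summed in 6 libraries. They were compared with the other 23 human tetraspanin genes.

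The cell line THP-1 derives from acute monocytic leukaemia and grows in suspension. Poly(A) RNA was sequenced from untreated THP-1 cells obtained from the DSMZ biorepository (3 libraries) and from the ATCC biorepository (3 libraries). Cells of both sources grew side by side at 37 °C and 5% CO2 in RPMI with 20% serum, for 48 h and, after a split, for 24 h, and the replicate expansions were independent. Each source is represented by the cells obtained from it, so a difference between the biorepositories and one between the particular cells received cannot be told apart, and p-values rest on the spread between expansions.

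Libraries held 23413428 to 37119721 estimated counts (reads assigned to transcripts by kallisto). The first principal component (82.0% of the variance) separated the sources, and ATCC replicate 2 lay apart on the second, at 43.5 against -31.3 and -14.7 for ATCC replicates 1 and 3. All 10 chosen monocytic genes passed the filter on low counts, with lysozyme (LYZ) at 285 to 383 CPM (counts scaled to library size) in DSMZ and 189 to 400.2 in ATCC. Of these genes 3 were higher in DSMZ and 4 lower in the gene test described below. That test called 49.8% of all tested genes, 24.1% higher and 25.7% lower. Myeloperoxidase (MPO) had 74.2 to 109 CPM in DSMZ and 10.1 to 12.04 in ATCC, and CSF1R and CD4 were higher too. CD33, SPI1, FCGR1A and CD14 were lower, with CD14 scarce at 0.250 to 0.434 CPM in DSMZ and 0.892 to 1.55 in ATCC. CD9 is abundant on platelets, and no library held a count of the platelet genes PF4 and PPBP. The limit for such a 0 (3 counts over a source, counting error only) is 0.0344 CPM in DSMZ and 0.0363 CPM in ATCC. The platelet list of 8 genes summed to 2.72 to 6.64 CPM in DSMZ and 4.68 to 6.60 in ATCC, and of 5 tested genes 1 was higher in DSMZ and 2 lower. GP1BB, the one that was higher, as CD9 was, had 3.73, 0.389 and 0.445 CPM in DSMZ replicates 1 to 3, against 0 counts in ATCC. TREML1 was lower, with 53 counts over the DSMZ libraries and 245 over the ATCC libraries, and so was VWF. CD37, CD53 and CD81 are abundant on B cells, and the B cell list of 7 genes summed to 18.7 to 22.2 CPM in DSMZ and 6.74 to 7.64 in ATCC, with MS4A1 (CD20) at 0 counts throughout and CD79A, CD79B and PAX5 higher in DSMZ, of 4 tested genes. The part of these lists in the tetraspanin values was not tested. In bulk RNA, fewer cells with a transcript and less of it per cell cannot be told apart.

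The promoters of CD9, CD53 and CD82 are printed because these were the members at least 2-fold higher in DSMZ whose RefSeq start lay within 60 bases of the first base of the protein-coding transcript with the highest TPM summed over the 6 libraries. For CD9 that transcript, CD9-201, led the coding transcripts only in DSMZ replicates 1 and 2. In DSMZ replicate 3 it had 2.31 TPM, below CD9-206 at 2.77, and in ATCC it had 0, 0.118 and 0 TPM, below other coding transcripts in each library. RefSeq windows (GRCh38.p14, 300 bases, 250 before the start) were in the table used for CD9, CD53, CD63, CD82, TSPAN4 and TSPAN14, and those of CD37, CD81, CD151 and TSPAN3 are not printed here. Capitals mark the GC box GGGCGG and the PU box GAGGAA, a core bound by ETS factors such as PU.1, on either strand (reverse complements CCGCCC and TTCCTC). Overlapping or adjacent matches run together.
CD9, chr12:6200150-6200449, plus strand: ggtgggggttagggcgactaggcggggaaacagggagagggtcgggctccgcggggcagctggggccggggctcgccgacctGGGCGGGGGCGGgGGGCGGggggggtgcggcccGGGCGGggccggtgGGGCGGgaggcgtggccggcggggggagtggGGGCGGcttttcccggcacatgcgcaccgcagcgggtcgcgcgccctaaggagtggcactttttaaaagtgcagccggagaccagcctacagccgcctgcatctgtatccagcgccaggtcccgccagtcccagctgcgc
CD53, chr1:110872898-110873197, plus strand: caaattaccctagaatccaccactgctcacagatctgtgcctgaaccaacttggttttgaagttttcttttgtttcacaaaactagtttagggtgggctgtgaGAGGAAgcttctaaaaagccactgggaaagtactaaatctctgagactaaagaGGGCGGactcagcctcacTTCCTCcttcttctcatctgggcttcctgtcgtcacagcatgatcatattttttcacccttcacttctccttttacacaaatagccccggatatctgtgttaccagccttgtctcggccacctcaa
CD82, chr11:44565413-44565712, plus strand: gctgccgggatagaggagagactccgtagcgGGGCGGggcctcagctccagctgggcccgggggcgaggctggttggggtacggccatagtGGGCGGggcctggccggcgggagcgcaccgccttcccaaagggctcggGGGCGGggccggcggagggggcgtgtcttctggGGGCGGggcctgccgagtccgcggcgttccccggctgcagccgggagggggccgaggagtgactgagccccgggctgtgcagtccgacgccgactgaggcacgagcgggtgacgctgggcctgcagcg

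The CD9 window held 6 GC boxes and 32 CG dinucleotides, the CD82 window 4 and 33, and the CD53 window 1 and 4. The CD53 window held 2 PU boxes, and the other printed windows held 0. None of them held the TATA box TATAAA. Of all 35116 promoter windows of this length, 44.95% held the GC box, 27.9% the PU box and 11.5% the TATA box, and the median number of CG dinucleotides was 14. These matches are letters only, and the RNA data do not show which of them is bound.

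Most of the tetraspanin genes differed between the sources, and they did so in both directions. CD9, CD53, CD63, CD82, TSPAN3 and TSPAN14 were higher in DSMZ cells, CD37, CD81 and CD151 were lower, and TSPAN4 did not pass. By the quasi-likelihood test of edgeR, with p adjusted by Benjamini-Hochberg over 14569 tested genes, 9 of the 10 members passed an adjusted p of 0.05, beside 49.8% of all tested genes. Of these, 6 were higher in DSMZ (24.1% of all tested genes) and 3 lower (25.7%). At least 2-fold differences were found in 5 members, CD9, CD37, CD53, CD82 and TSPAN14, beside 21.3% of tested genes. Of these, 4 were higher in DSMZ (9.9% of tested genes) and CD37 was lower (11.4%). With a correction for transcript GC content the same 9 members passed, beside 64.5% of tested genes. In CPM the libraries of the 2 sources did not overlap for any of the 10 members, beside 62.4% of tested genes. Every log2 fold change below is DSMZ minus ATCC, so positive values are higher in DSMZ.

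**Figure D1:**
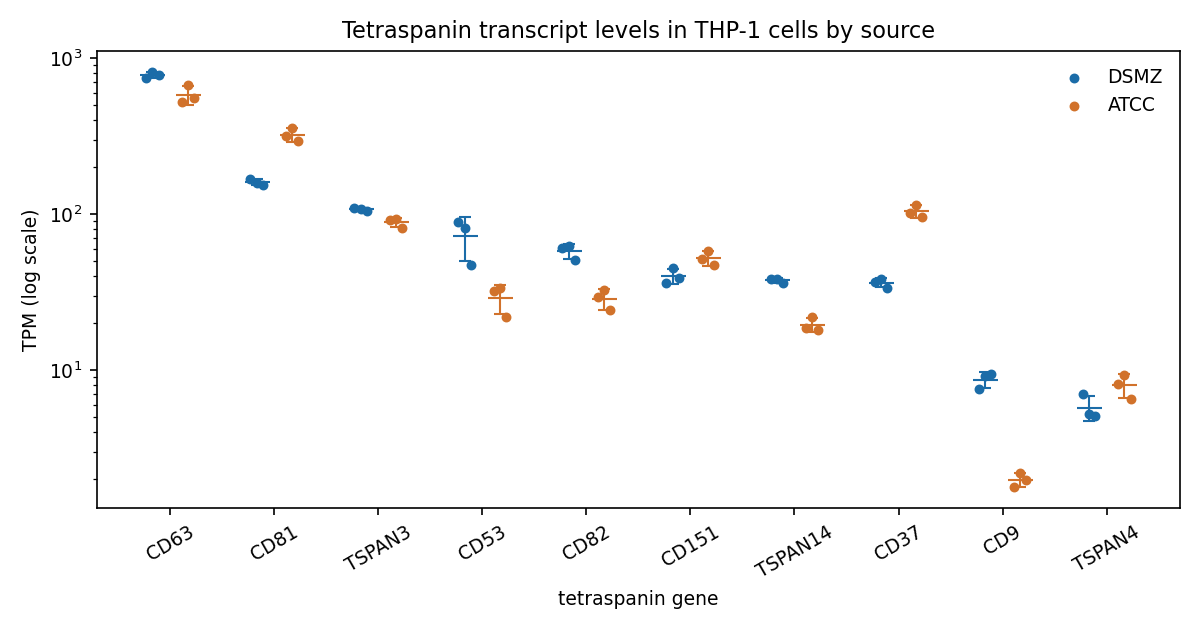
TPM (length-scaled abundance, log axis) of the 10 tetraspanin genes in the 3 DSMZ libraries (left of each pair) and the 3 ATCC libraries (right). Points are libraries, and bars give the mean ± SD. CD63 led in both sources, at a mean of 780.4 TPM in DSMZ and 583 in ATCC. CD9 held rank 9 in DSMZ and rank 10 in ATCC.

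CD63, the tetraspanin of late endosomes, lysosomes and secretory granules (chromosome 12, 55725323 to 55729707), was the most abundant member. It had 741, 817 and 783 TPM in DSMZ replicates 1 to 3, against 525, 673 and 550.2 TPM in ATCC. The lowest DSMZ library stood above the highest ATCC library. The log2 fold change was 0.46 (SE 0.13; edgeR adjusted p = 0.0221). The call was lost without DSMZ replicate 1, 2 or 3 or ATCC replicate 1 or 3 (adjusted p between 0.0727 and 0.115) and with upper quartile normalization (0.0857), and its adjusted p without ATCC replicate 2 was 6.32e-05. CD63 transcripts made up 56.7 ± 2.29% of the summed TPM of all 33 tetraspanins in DSMZ and 43.6 ± 1.98% in ATCC (SD, n = 3 each), without overlap (exact two-sided permutation p = 0.1, the smallest that 3 against 3 libraries allow).

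CD81, the B cell co-receptor subunit and hepatitis C virus receptor (chromosome 11, 2376177 to 2397419), had 168, 159 and 154.5 TPM in DSMZ, against 317, 358 and 292 TPM in ATCC. All ATCC libraries were higher than all DSMZ libraries, and the log2 fold change was -0.97 (SE 0.11; edgeR adjusted p = 0.000368). CD9, its close relative in cell fusion and adhesion (chromosome 12, 6199715 to 6238271), went the other way. It had 7.54, 9.12 and 9.45 TPM in DSMZ, against 1.78, 2.19 and 1.97 TPM in ATCC. This was the largest fold change of the members, at 2.01 (SE 0.19; edgeR adjusted p = 0.000155), or 4.02-fold. CD9 rested on few reads, with 120 to 214 estimated counts per DSMZ library and 32 to 46 per ATCC library. Within a library, the TPM of CD81 was 16.4 to 22.2 times that of CD9 in DSMZ and 148 to 178 times in ATCC. CD9 and CD81 are both used as vesicle markers, and their levels relative to each other thus differed between the sources without overlap.

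CD37 and CD53, tetraspanins largely restricted to leukocytes, also moved in opposite directions. CD37 (chromosome 19, 49335171 to 49343335) had 36.5, 38.6 and 33.8 TPM in DSMZ, against 102, 115 and 96.3 TPM in ATCC. It was the member with the largest decrease in DSMZ, with a log2 fold change of -1.48 (SE 0.12; edgeR adjusted p = 7.15e-05), and the call held in all 20 other settings and left-out libraries. CD53 (chromosome 1, 110871188 to 110899928) had 89.5, 81.8 and 47.2 TPM in DSMZ, against 32.0, 33.4 and 22.0 TPM in ATCC. DSMZ replicate 3 was the lowest of its source and still above every ATCC library. The log2 fold change was 1.35 (SE 0.26; edgeR adjusted p = 0.00355). The TPM ratio of CD53 to CD37 within a library was 2.45, 2.12 and 1.40 in DSMZ, against 0.313, 0.290 and 0.228 in ATCC. With all transcripts counted, their order was thus reversed between the sources. On coding transcripts alone CD53 stood above CD37 in DSMZ replicates 1 and 2 (48.1 against 30.7 TPM and 46.1 against 29.7). In DSMZ replicate 3 it was below CD37 (24.5 against 27.4 TPM), as in every ATCC library. The 3' part of CD37 overlaps the annotated span of TEAD2 (49340595 to 49362457), a transcription factor gene, which was higher in DSMZ (1.05, SE 0.15). The kit is stranded, but how kallisto was set for strand is unknown here, so how reads of the overlap were divided is uncertain.

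CD82 and CD151 bind integrins. CD82, first named as a suppressor of metastasis (chromosome 11, 44564427 to 44620363), had 60.5, 62.6 and 50.7 TPM in DSMZ, against 29.3, 32.7 and 24.15 TPM in ATCC. All DSMZ libraries were higher, and the log2 fold change was 1.03 (SE 0.15; edgeR adjusted p = 0.000905). CD151, a partner of laminin-binding integrins (chromosome 11, 832843 to 839831), had 36.4, 44.85 and 39.0 TPM in DSMZ, against 51.3, 58.1 and 47.3 TPM in ATCC. The libraries did not overlap, but the difference was small, at -0.34 (SE 0.12; edgeR adjusted p = 0.0482). It was lost without DSMZ replicate 1, 2 or 3 or ATCC replicate 3 (0.172, 0.131, 0.141 and 0.0890) and with the replicate number as a block (0.0591), and DESeq2 gave 0.0556. The span of CD151 overlaps that of POLR2L, an RNA polymerase II subunit gene, with the same limit on strand.

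TSPAN3, TSPAN4 and TSPAN14 differed from each other in how far the sources diverged. TSPAN14, a regulator of the protease ADAM10 (chromosome 10, 80454166 to 80533123), had 38.3, 38.4 and 36.0 TPM in DSMZ, against 18.5, 22.04 and 18.2 TPM in ATCC. It was about as much higher in DSMZ as CD82, at 1.007 (SE 0.12; edgeR adjusted p = 0.000337). TSPAN3 (chromosome 15, 77041404 to 77083984), which is required by human acute myelogenous leukaemia cells in transplanted mice, had 109.6, 108 and 104 TPM in DSMZ, against 91.5, 92.9 and 81.85 TPM in ATCC. The increase was the smallest of those called, at 0.27 (SE 0.09; edgeR adjusted p = 0.0377). It was lost without DSMZ replicate 1, 2 or 3 or ATCC replicate 1 or 3 (0.0919 to 0.218), with the block (0.0840) and in DESeq2 (0.0663). TSPAN4, a component of the migrasomes that migrating cells leave behind (chromosome 11, 842808 to 867116), had 6.996, 5.21 and 5.09 TPM in DSMZ, against 8.14, 9.34 and 6.58 TPM in ATCC. The sources overlapped in TPM, and the log2 fold change of -0.40 (SE 0.15) did not pass (edgeR adjusted p = 0.0646), though it did without ATCC replicate 1 (0.0335). Without ATCC replicate 2, the library that stood apart, the same 9 members passed.

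By mean TPM the order in DSMZ was CD63, CD81, TSPAN3, CD53, CD82, CD151, TSPAN14, CD37, CD9 and TSPAN4. The ranges of CD53 and CD82 overlapped, as did those of CD151 and TSPAN14 and those of TSPAN14 and CD37. In ATCC it was CD63, CD81, CD37, TSPAN3, CD151, CD53, CD82, TSPAN14, TSPAN4 and CD9, where only the neighbours CD53 and CD82 overlapped. CD37 thus held rank 8 by mean in DSMZ, where its range overlapped those of both CD151 and TSPAN14, and rank 3 in ATCC. The members' summed TPM was alike, at 1307 ± 52.2 in DSMZ and 1238 ± 138 in ATCC (SD, n = 3 each; exact permutation p = 0.5), with overlapping libraries.

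Genes near the members shared the direction of some of them. Within 1 Mb of CD9, 42 tested genes had a median log2 fold change of 0.97, with 32 higher and 4 lower in DSMZ, and the next gene, the tumour necrosis factor receptor TNFRSF1A, was higher (0.78, SE 0.12). VWF, on the other side, had only 0.376 CPM in DSMZ and 0.668 CPM in ATCC (-0.84, SE 0.29; edgeR adjusted p = 0.0441), a call lost in most of the alternatives. Within 1 Mb of CD37 the median of 61 genes was -0.82, with 3 higher and 45 lower, while the median of chromosome 19 was -0.03. TRPM4, the nearest gene before it, did not pass (-0.06, SE 0.14; edgeR adjusted p = 0.763), and its direction turned under several alternatives. The 51 genes around CD63 had a median of 0.49, close to its own value, and both genes beside it, RDH5 (1.98, SE 0.44) and GDF11 (0.90, SE 0.11), were higher. TSPAN14 lies on chromosome 10, whose 533 tested genes had a median of 1.03 in DSMZ, equal to its own difference within the error, although the 6 genes within 1 Mb had a median of 0.42. PRXL2A beside it was higher (1.05, SE 0.10). The nearest tested coding gene on its other side, GHITM (1.09, SE 0.08), an inner mitochondrial membrane protein gene, was higher too, but it starts at 84139440, well beyond 1 Mb.

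The 4 members on chromosome 11 did not move together. The chromosome median was -0.36 over 786 genes. CD151 and TSPAN4, which lie close together, each had 38 tested genes within 1 Mb with a median of -0.44, near their own values. POLR2L between them (-0.79, SE 0.17) and CHID1 beyond TSPAN4 (-0.74, SE 0.14) were lower, while CRACR2B before CD151 did not pass (-0.32, SE 0.28; edgeR adjusted p = 0.386). CD81 was lower than its surroundings (19 genes, median -0.46), and its neighbours TSSC4 (-0.69, SE 0.13) and TSPAN32 (-0.46, SE 0.12), itself a tetraspanin gene, were lower too. CD82 was higher in DSMZ although 10 genes within 1 Mb had a median of -0.61. The genes on its sides, the homeobox gene ALX4 (-1.11, SE 0.17) and TSPAN18 (-3.04, SE 0.28), were both lower. CD53 stood above the median of 22 genes within 1 Mb (0.18), but the potassium channel gene KCNA3 (1.88, SE 0.20) and LRIF1 (0.98, SE 0.24) beside it were higher. TSPAN3 was close to the median around it (0.11, 11 genes), with PSTPIP1 lower (-1.26, SE 0.15) and PEAK1 higher (1.11, SE 0.22). The part of gene copy number in these values was not tested.

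**Figure D2:**
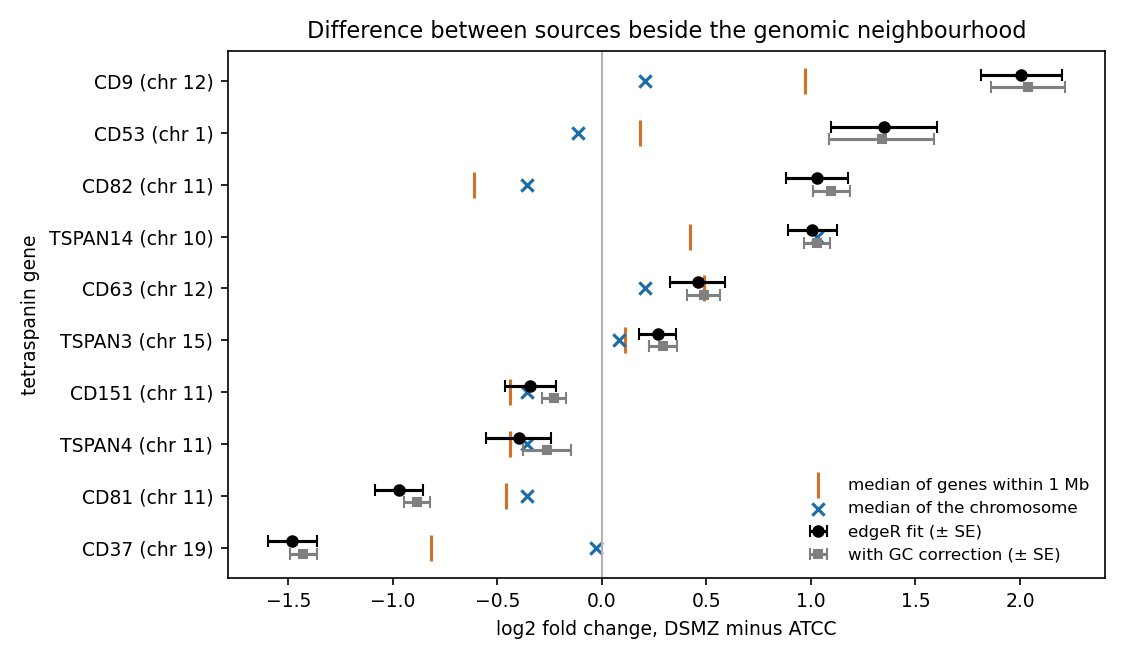
Log2 fold change, DSMZ minus ATCC, of the 10 members. Black circles are the edgeR fit and grey squares the fit with a correction for transcript GC content, with SE bars. Vertical bars give the median of tested genes within 1 Mb and crosses the median of the chromosome. CD82 lies on the other side of 0 from its surroundings, and TSPAN14 (1.007) lies at the median of chromosome 10 (1.03).

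The transcripts that kallisto assigned to a gene share reads, so shares of single transcripts are estimates. For CD37 the same coding transcript, CD37-201, led in both sources, with 79.0 ± 3.65% of the gene's TPM in DSMZ and 82.3 ± 1.23% in ATCC (SD, n = 3 each). CD53 was split between the coding CD53-201 (54.0 ± 2.27% in DSMZ and 53.4 ± 4.93% in ATCC) and the processed transcript CD53-205 (43.1 ± 2.26% in DSMZ and 45.7 ± 4.18% in ATCC). Both members thus kept a similar make-up while their gene totals differed between the sources. By mean share, CD63, CD81, CD82, CD151, TSPAN3 and TSPAN14 also had the same leading transcript in both sources. Single libraries could differ. In ATCC replicate 1 CD151-218, annotated for nonsense-mediated decay, held 43.3%, above CD151-202 at 31.6%. In ATCC replicate 3 CD82-204 held 27.9%, above CD82-203 at 25.8%. CD63-213, not the leader, held 11.8 ± 0.112% in DSMZ and 15.0 ± 2.36% in ATCC, without overlap (exact permutation p = 0.1).

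CD9 and TSPAN4 did not have the same leading transcript by mean share in both sources. CD9-201, which encodes the protein and begins at the start in the promoter printed above, held 57.2, 28.5 and 24.4% of CD9 TPM in DSMZ, against 0, 5.39 and 0% in ATCC. These shares did not overlap (exact permutation p = 0.1, the smallest possible). Other coding transcripts also begin within the printed window. CD9-206 (from 6200412) held 25.5, 28.3 and 29.3% in DSMZ, against 44.3, 12.1 and 0% in ATCC. CD9-212 (from 6200316) held at most 5.03% in a DSMZ library, against 21.8, 0 and 18.6% in ATCC. The low shares of CD9-201 thus do not show that this start region was unused in ATCC. The processed transcript CD9-205, which is not annotated as coding, held 0.232, 42.4 and 15.9% in DSMZ, against 24.5, 57.9 and 60.8% in ATCC, with overlap. Coding CD9 transcripts together had 7.52, 5.18 and 6.35 TPM in DSMZ, against 1.34, 0.923 and 0.392 TPM in ATCC. On coding transcripts alone the log2 fold change of CD9 was 2.82 (SE 0.34, edgeR adjusted p = 0.000447), larger than for the whole gene. The coding share of CD9 TPM was 99.8, 56.8 and 67.3% in DSMZ, against 75.5, 42.1 and 19.85% in ATCC, with overlap (exact permutation p = 0.3). ATCC libraries held only 32 to 46 CD9 counts to divide among transcripts, so the larger value is uncertain. In TSPAN4, the coding transcript TSPAN4-203 held 23.1, 29.8 and 6.18% of TPM in ATCC and was listed at or next to 0 in all DSMZ libraries. TSPAN4-204 led in DSMZ and TSPAN4-220 in ATCC, both with wide scatter (36.0 ± 14.5% in DSMZ and 17.5 ± 22.7% in ATCC for TSPAN4-204).

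**Figure D3:**
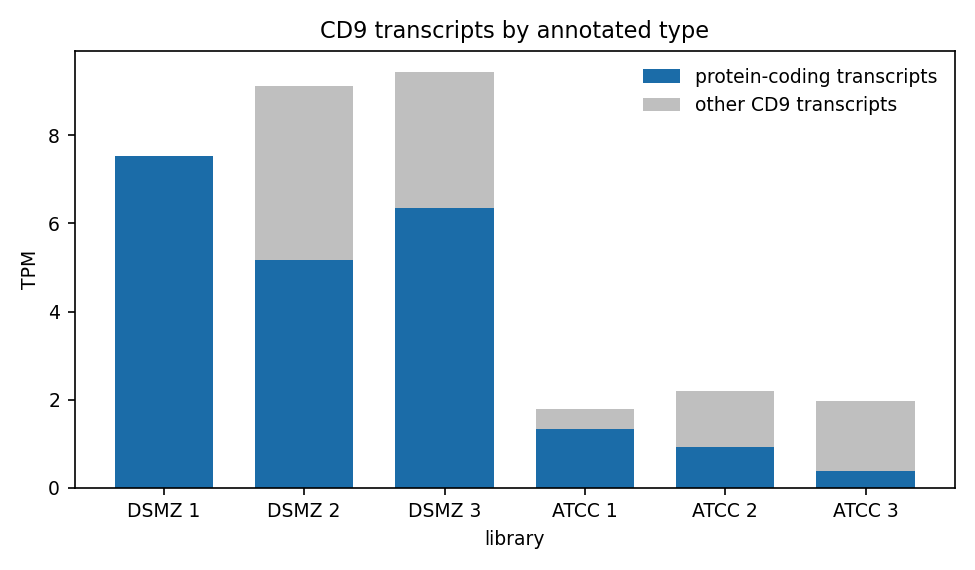
TPM of CD9 transcripts annotated as protein-coding (blue) and of all other CD9 transcripts (grey) in each library. Coding transcripts reached 5.18 to 7.52 TPM in DSMZ and 0.392 to 1.34 TPM in ATCC, without overlap, while the non-coding part varied among libraries of 1 source.

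Of the other 23 tetraspanin genes, 12 passed the filter on low counts, of which 7 were lower in DSMZ and 0 higher at the edgeR threshold. That is 58.3% called, beside 49.8% of all tested genes (25.7% lower and 24.1% higher). Their median log2 fold change was -0.56, beside 0.36 for the 10 members and 0.01 for all tested genes. In 2 alternatives 1 gene was higher in DSMZ, TSPAN13 with the GC correction and TSPAN31 without ATCC replicate 2. Summed, the 23 genes had 71.0, 72.5 and 67.3 TPM in DSMZ, against 93.3, 101.5 and 93.8 TPM in ATCC. TSPAN31 was the most abundant of them, at 30.9 to 34.6 TPM in DSMZ and 26.4 to 34.6 in ATCC, and did not pass (0.12, SE 0.13; edgeR adjusted p = 0.466). It passed only without ATCC replicate 2 (0.0194). TSPAN32, found mainly on blood cells, was lower at 8.06 to 11.9 TPM in DSMZ and 13.4 to 19.0 in ATCC (-0.46; adjusted p = 0.0128). Its call was lost without DSMZ replicate 1 or 2 (0.0633 and 0.0661) and on coding transcripts alone (0.0723). The largest decreases were in scarce genes. TSPAN18 had 0.0740 to 0.273 TPM in DSMZ and 1.26 to 1.58 in ATCC (-3.04, SE 0.28), and TSPAN12, a co-receptor for norrin at Frizzled receptors, had 0.348 to 0.403 TPM in DSMZ and 1.29 to 2.94 in ATCC (-2.04, SE 0.39). TSPAN2 was lower as well (-0.66, SE 0.18), a call lost without DSMZ replicate 1 or 2 or ATCC replicate 3, in limma on log2 TPM and with a length offset (adjusted p 0.0547 to 0.0574). TSPAN6 (0.30, SE 0.15) and TSPAN13 (0.34, SE 0.15) did not pass (adjusted p = 0.136 and 0.0948), and TSPAN13 passed with the GC correction (0.0438). The other 11 genes had at most 27 counts over the DSMZ libraries and at most 45 over the ATCC libraries, and TSPAN8 had 0 in all of them.

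TSPAN5, TSPAN10, TSPAN14, TSPAN15, TSPAN17 and TSPAN33 form the TspanC8 group, which binds the protease ADAM10 and carries it to the cell surface, each member steering it to particular substrates. Their summed TPM overlapped between the sources, at 56.0, 57.3 and 52.5 in DSMZ, against 54.9, 58.1 and 53.9 in ATCC (exact permutation p = 0.9). In CPM they summed to 114.2 to 121.2 in DSMZ and 95.99 to 117 in ATCC, also with overlap. The make-up of the TPM sum did differ. TSPAN14 held 68.3, 66.96 and 68.7% of the sum in DSMZ, against 33.7, 37.9 and 33.8% in ATCC. TSPAN17 held 14.6 ± 0.600% in DSMZ and 31.9 ± 1.20% in ATCC. TSPAN5 (7.22 ± 0.846% in DSMZ and 16.4 ± 3.28% in ATCC) and TSPAN33 (4.92 ± 1.16% in DSMZ and 12.1 ± 2.78% in ATCC; SD, n = 3 each) were also without overlap. Each of these shares had an exact permutation p of 0.1, the smallest possible.

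In the gene test 1 of the 6 TspanC8 genes, TSPAN14, was higher in DSMZ and 3 were lower. That is 66.7% called, of only 6 genes, beside 49.8% of all tested genes (24.1% higher and 25.7% lower). The 3 lower genes were TSPAN5 (-1.27, SE 0.12), TSPAN17 (-1.04, SE 0.12) and TSPAN33 (-1.30, SE 0.27), with edgeR adjusted p of 0.000143, 0.000307 and 0.00551. TSPAN10 (0.32, SE 0.28) and TSPAN15 (0.08, SE 0.24) did not pass (0.372 and 0.806). ADAM10 itself reached 189 ± 5.05 CPM in DSMZ and 151 ± 59.9 CPM in ATCC (SD, n = 3 each). ATCC replicates 1 and 3 had 198 and 171.5 CPM, near the 185 to 194.8 of DSMZ, and ATCC replicate 2 had 83.6 CPM. The difference of 0.32 (SE 0.28) did not pass (edgeR adjusted p = 0.367).

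**Figure D4:**
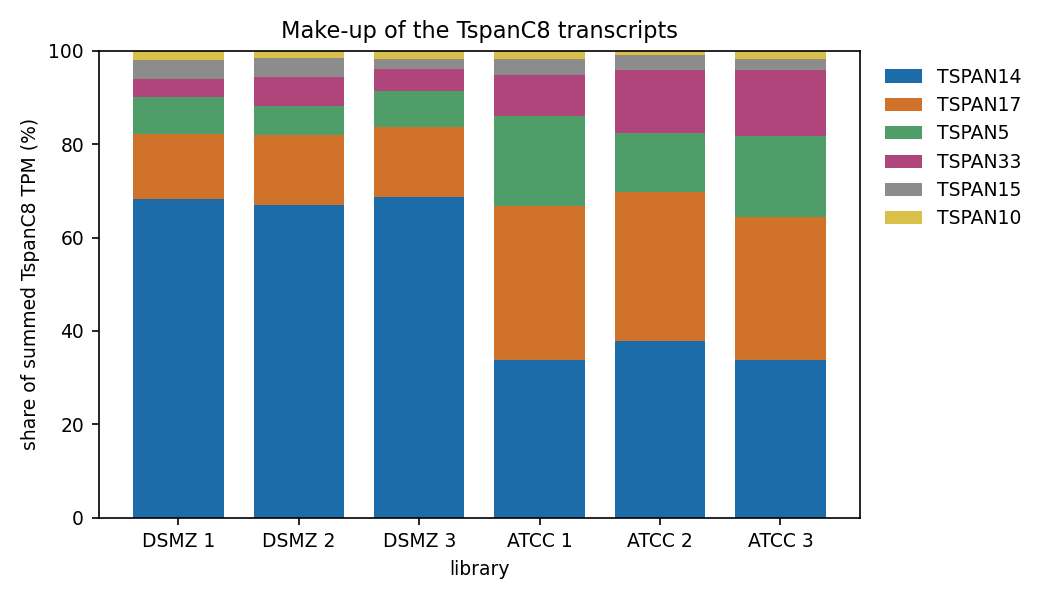
Share of the summed TPM of the 6 TspanC8 genes held by each gene, in percent, per library. TSPAN14 makes up 66.96 to 68.7% in the DSMZ libraries and 33.7 to 37.9% in the ATCC libraries, where TSPAN17, TSPAN5 and TSPAN33 hold more.

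Proteins known to bind tetraspanins went both ways. Of 20 partner genes 17 were tested, with 6 higher in DSMZ and 3 lower and a median log2 fold change of 0.17. That is 52.9% called, near the 49.8% of all genes. The number lower was 5, of 12 called, without ATCC replicate 2 and 5, of 13 called, with the replicate block and GC correction together. HLA-DRA, an MHC class II chain held in tetraspanin domains, reached 164 ± 40.8 CPM in DSMZ and 6.08 ± 2.67 in ATCC (4.76, SE 0.36). It was not tested in the fit on coding transcripts alone, so that fit gives no check of its difference. ITGB1, the integrin chain that pairs with partners of CD9, CD81 and CD151, reached 513 ± 2.27 CPM in DSMZ and 147 ± 45.8 in ATCC (1.80, SE 0.22). ITGB1 lies on chromosome 10, whose 533 tested genes had a median of 1.03, and 5 genes within 1 Mb had a median of 1.39. ITGA3, the integrin chain bound most directly by CD151, was lower and scarce (0.711 ± 0.0282 CPM in DSMZ and 2.76 ± 0.370 in ATCC; -1.95, SE 0.19). CD36, a scavenger receptor, was lower too (-1.73, SE 0.34). Of the immunoglobulin-family partners of CD9 and CD81, PTGFRN was higher (0.55, SE 0.11; edgeR adjusted p = 0.00416; 0.0633 in limma on log2 TPM). IGSF8 did not pass (0.17, SE 0.14; adjusted p = 0.360). It passed with the GC correction (0.00985) and without ATCC replicate 2 (0.0264).

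Endosome and vesicle genes, tested because CD63 and its relatives leave cells on vesicles, had 6 of 24 members higher and 7 lower in DSMZ. That is 54.2% called, near the 49.8% of all tested genes, and the median was 0.17. The total of 13 was 20 without ATCC replicate 2 and with the GC correction, and 8 without DSMZ replicate 2. The number higher was 13 without ATCC replicate 2 and 12 with the GC correction, and the number lower was 4 without DSMZ replicate 1 or 2. Syntenin (SDCBP), the adaptor that links CD63 to the vesicle pathway, reached 85.3 ± 3.86 CPM in DSMZ and 170.9 ± 25.04 CPM in ATCC (-1.003, SE 0.12, edgeR adjusted p = 0.000480), opposite to CD63. Syntenin lies on chromosome 8, whose 469 tested genes had a median of -0.86, and 3 genes within 1 Mb had a median of -1.255. Its partner ALIX (PDCD6IP; 0.21, SE 0.15) and the ESCRT-I subunit TSG101 (-0.23, SE 0.10) did not pass (adjusted p = 0.3 and 0.0978), and TSG101 passed in limma on log2 TPM (0.0247). The ESCRT-0 subunit STAM (1.28, SE 0.19) and AP3M1 (1.05, SE 0.15), a subunit of the adaptor that sorts CD63 to lysosomes, were higher. Both lie on chromosome 10. CHMP3, an ESCRT-III subunit (-1.03, SE 0.09), was lower, as was RAB27B, a GTPase of vesicle release, with 0.260 ± 0.148 CPM in DSMZ cells, against 1.10 ± 0.498 CPM in ATCC cells (-2.10, SE 0.51; limma on log2 TPM gave 0.0700).

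Lysosomal membrane genes, which share the compartment of CD63, had 3 of 15 members higher and 6 lower. That is 60.0% called, beside 49.8% of all tested genes, and the median was -0.19. The total of 9 was 3 without DSMZ replicate 1, 4 without DSMZ replicate 2 or 3, 5 without ATCC replicate 3 and 5 with a length offset. It was 6 without ATCC replicate 1, in limma on log2 TPM, with no filter on low counts and on coding transcripts. The number higher was 0 without DSMZ replicate 1 or 2 or ATCC replicate 3. It was 1 without DSMZ replicate 3 or ATCC replicate 1, with upper quartile normalization, library totals, no filter or a length offset. The number lower was 3 without DSMZ replicate 1 or 3. LAMP2 reached 239 ± 10.1 CPM in DSMZ and 378 ± 65.3 in ATCC (-0.67, SE 0.13). It lies on the X chromosome, whose 491 tested genes had a median of -0.82. The metal transporter SLC11A1 was lower (-1.10, SE 0.18, with an edgeR adjusted p of 0.177 on coding transcripts). The proton pump subunit ATP6V0D1 was lower (-0.47, SE 0.14) and the cystine transporter CTNS higher (0.51, SE 0.13), calls that were lost without DSMZ replicate 1 or 2 (adjusted p 0.0545 to 0.0826), for CTNS also without ATCC replicate 3 (0.0812) and for ATP6V0D1 also without DSMZ replicate 3 (0.102).

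The DHHC palmitoyltransferases had 6 of 21 tested members higher and 9 lower, with a median of -0.26. That is 71.4% called, beside 49.8% of all tested genes (24.1% higher and 25.7% lower). The number higher was 3 without DSMZ replicate 1, 2 or 3 or ATCC replicate 3. ZDHHC11 reached 2.94 ± 0.239 CPM in DSMZ and 0.291 ± 0.0674 in ATCC (3.32, SE 0.23), a value that is uncertain, since a near-identical copy of the gene can take its reads. ZDHHC6 was higher (105 ± 3.42 CPM in DSMZ and 39.9 ± 4.25 in ATCC; 1.39, SE 0.11) and lies on chromosome 10. ZDHHC14 (-1.58, SE 0.14) and ZDHHC9 (-1.37, SE 0.12), which palmitoylates RAS proteins, were lower. ZDHHC9 lies on the X chromosome, where the median was -0.82. CD9 and CD81 restrain the fusion of macrophages in mice. Of 10 macrophage fusion genes 6 were tested, with a median of -0.50. SIRPA (0.77, SE 0.11) and CD47 were higher. TREM2 (28.7 ± 3.29 CPM in DSMZ and 77.5 ± 8.93 in ATCC, -1.43, SE 0.14), CD44 (-0.99, SE 0.18) and ADAM9 (-1.37, SE 0.27) were lower. That is 83.3% called, of only 6 genes, beside 49.8% of all tested genes. ADAM9 lies on chromosome 8, whose 469 tested genes had a median of -0.86.

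**Figure D5:**
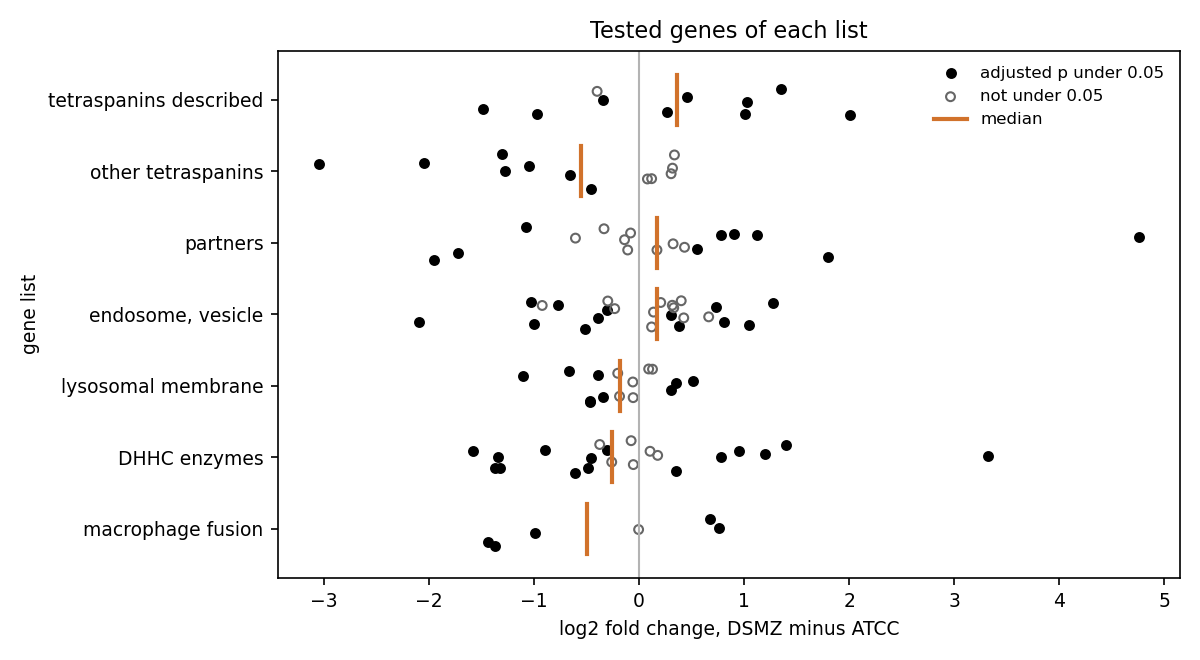
Log2 fold change, DSMZ minus ATCC, of the tested genes of each list. Filled points passed an adjusted p of 0.05, open points did not, and bars are medians. The 10 tetraspanins spread to both sides of 0, while the 7 filled points of the other tetraspanins all lie below 0. The median is 0.36 for the 10 members and -0.56 for the other tetraspanins.

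Genes most like CD9 and CD37 in pattern were found by the root mean square difference of log2(CPM + 0.5), centred on each gene's mean, over 6 libraries among 9612 coding genes with a mean of at least 8 CPM. For CD9 these were PALM (0.0574), CKB (0.0605) and ETV5 (0.0803), while the value of the median gene was 0.873. The added 0.5 shrinks differences most in scarce genes, and CD9 had 1.13 to 6.37 CPM. The edgeR log2 fold changes of PALM, CKB and ETV5 (1.775, 1.836 and 1.787) were below that of CD9 (2.006). CKB, brain-type creatine kinase, had 58.0, 68.6 and 65.3 CPM in DSMZ, against 14.9, 21.1 and 17.8 CPM in ATCC. For CD37 they were TPP1 (0.0213), TOR3A (0.0298) and ADCY9 (0.0405), with the median gene at 0.782. TPP1, a lysosomal peptidase, had 112, 105 and 97.9 CPM in DSMZ, against 282, 327 and 271 CPM in ATCC. The libraries fall into the 2 sources, so likeness rests mainly on the difference between them.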

How the data were processed

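Poly(A) RNA of 3 DSMZ and 3 ATCC THP-1 libraries was analysed. Per the labels' protocols, RNA was prepared with TriZol and an RNeasy kit and libraries with a stranded KAPA kit. Per the submitters' processing notes, bcl2fastq 2.20, Trimmomatic 0.35 and kallisto 0.43.0 were used with the build GRCh38. The annotation release was not given in the sources used here. Per the file headers, the deposited files give an estimated count and a TPM for each of 179973 transcripts, neither rounded nor pooled.

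Transcripts were assigned to GENCODE 29 symbols on the primary assembly (163714) or through GENCODE's symbol table (14222, 2.42 to 2.85% of counts); 2037 had no gene. Estimated counts were summed per gene and rounded. Genes were tested with edgeR 4.0.16 in R 4.3.3 (filterByExpr, TMM, quasi-likelihood F test, source as the term) with Benjamini-Hochberg adjustment over all 14569 genes and a threshold of 0.05. The standard error is the absolute log2 fold change over the square root of F. TPM was summed per gene for levels. Single shares were compared by an exact permutation over libraries. Coordinates are those of GRCh38 in GENCODE 29.

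Chi-square divided by its degrees of freedom was at least 4.59 for any pair within a source, so no library repeats another. Alternatives were other normalizations, filters and tools (DESeq2 1.42.0, limma 3.58.1), a length offset, other transcript sets, a GC correction, a replicate block and leaving out each library. The members and lists were chosen with earlier results of these data known. Genes named beside the members are, by rule, the fixed partners, up to 4 called genes per list with a mean of at least 1 CPM, other tetraspanins that passed or reached 1 TPM, the nearest tested coding genes, and the 3 genes most like the pair with the largest changes. Figures were drawn with matplotlib 3.10.9.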

Additional observations from a re-analysis of the deposited data

How the results depend on the processing

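CD9, CD37, CD53, CD81, CD82 and TSPAN14 passed edgeR's, DESeq2's or limma's adjusted p of 0.05 in all 20 alternatives, and no member changed direction in any. The number of members called was between 6 and 9, with 6 without DSMZ replicate 1, 2 or 3 or ATCC replicate 3. CD63 passed in 14 of 20 alternatives, CD151 in 8, TSPAN3 in 6 and TSPAN4 in 1. Over all genes, 9402 of 14569 passed with the GC correction, against 7261 without it, and 5506 to 9511 when 1 library was left out. Same-numbered libraries had deviations that correlated at 0.0123, 0.0800 and 0.161. Every library correlated best with its own number except DSMZ replicate 1, which was at 0.0259 with ATCC replicate 2. These values were small and the labels do not state that the numbers pair cultures, so the block was used only as an alternative. With the replicate block 7 members and 7012 genes passed, and with the block and the GC correction together 9 members and 9344 genes. Directions turned round only in genes that did not pass. TSPAN15 was at -0.006 with upper quartile normalization and between -0.102 and 0.291 when 1 library was left out (below 0 without DSMZ replicate 2, ATCC replicate 1 or ATCC replicate 3). TRPM4, beside CD37 (-0.055), was at 0.055 in limma on log2(TPM + 0.5), 0.067 with the length offset, 0.062 with the GC correction, 0.060 with block and GC correction and between -0.197 and 0.086 when 1 library was left out (above 0 without ATCC replicate 2). CRACR2B, beside CD151 (-0.315), was between -0.533 and 0.007 when 1 library was left out (above 0 without ATCC replicate 2). The cause was not tested. On coding transcripts alone CD9 levels were 6.35 TPM in DSMZ and 0.886 in ATCC. CD9 in ATCC, at 46 or fewer counts per library, is the member whose level depth limits most.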
